A study of Mus musculus with 6 samples.

Results

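The 10 genes described here mark the basal layer of the mammary duct and the contractile machinery of its myoepithelial cells, and they were followed in cultured luminal cells given ephrin-A3 protein. They were chosen by name and all 10 had a row in the deposited table of 19739 genes. By role they are the basal transcription factors Trp63 and Snai2, the adhesion and cytoskeleton genes Cdh3 and Vim, the contractile genes Acta2, Tagln, Mylk, Cnn1 and Myh11, and the receptor gene Oxtr. Below, the first 4 genes are called basal members and the next 5 contractile members.

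RNA was sequenced from wild-type mouse mammary epithelial cells, purified as luminal cells by flow cytometry and cultured, in 6 libraries. All groups were grown with Y-27632 at 5 µM and with serum (FBS, 5%), heparin (4 µg/ml) and the growth factors EGF (10 ng/ml) and FGF2 (20 ng/ml). Y-27632 is a ROCK inhibitor, which lowers actomyosin contraction. After 12 hours of serum starvation, 3 samples received no EFNA3 protein (0 µg/ml, control) and 3 received 1 µg/ml of it (EFNA3) for a further 24 hours, still without serum. EFNA3 is ephrin-A3, a ligand of Eph receptors. The labels' protocols do not say whether Y-27632 was kept in the serum-free medium, and no group was grown without it, so its part in any level below cannot be told apart. The labels name no strain, age or number of animals. It is not stated that the libraries came from separate animals or cultures, so the spread behind every p-value is that of these libraries and may be technical.

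In the mammary duct, basal cells lie between the luminal cells and the basement membrane, and most of them are myoepithelial cells that squeeze milk out of the alveoli. Their identity is set by p63, encoded by Trp63, while their contraction uses smooth muscle proteins whose genes are driven by serum response factor (SRF) and its coactivators of the myocardin and MRTF families. Actin polymerisation frees MRTF to enter the nucleus. Oxytocin starts the contraction through its receptor, the product of Oxtr.

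Promoter sequences set the contractile genes Acta2 and Cnn1 beside Cnn2, a broadly expressed relative of Cnn1, and Oxtr, the most abundant member. RefSeq's promoter table for build GRCm38.p6 matched 5 of the 10 members, Vim, Acta2, Mylk, Cnn1 and Oxtr; Trp63, Snai2, Cdh3, Tagln and Myh11 were not matched. Each sequence is the 250 bases before the annotated start, 5′ to 3′ on the strand of the gene, at chr19:34255374-34255623 (minus strand) for Acta2, chr9:22099003-22099252 (plus) for Cnn1, chr10:79988350-79988599 (plus) for Cnn2 and chr6:112489826-112490075 (minus) for Oxtr. Capitals mark the CArG box, the site that SRF binds, with at most 1 of its 10 letters different.
Acta2: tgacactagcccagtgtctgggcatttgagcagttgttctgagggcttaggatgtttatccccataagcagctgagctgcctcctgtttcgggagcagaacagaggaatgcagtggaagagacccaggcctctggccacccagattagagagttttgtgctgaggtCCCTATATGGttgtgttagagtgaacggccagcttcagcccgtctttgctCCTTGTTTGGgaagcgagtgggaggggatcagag
Cnn1: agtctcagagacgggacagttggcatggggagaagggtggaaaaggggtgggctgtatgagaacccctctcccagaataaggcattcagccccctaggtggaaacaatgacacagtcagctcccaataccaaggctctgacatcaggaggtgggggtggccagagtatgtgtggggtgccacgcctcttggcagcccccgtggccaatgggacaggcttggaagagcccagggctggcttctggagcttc
Cnn2: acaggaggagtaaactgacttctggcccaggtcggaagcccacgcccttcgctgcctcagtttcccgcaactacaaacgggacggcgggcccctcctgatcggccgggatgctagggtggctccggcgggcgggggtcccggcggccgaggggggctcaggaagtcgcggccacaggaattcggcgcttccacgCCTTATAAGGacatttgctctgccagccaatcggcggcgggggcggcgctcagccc
Oxtr: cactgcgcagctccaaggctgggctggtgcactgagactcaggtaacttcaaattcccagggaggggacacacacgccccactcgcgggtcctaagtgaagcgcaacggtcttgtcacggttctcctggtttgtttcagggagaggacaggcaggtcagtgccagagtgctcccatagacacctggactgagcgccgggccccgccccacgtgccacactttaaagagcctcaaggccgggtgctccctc

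The Acta2 promoter held 2 such boxes, CCCTATATGG at -84 to -75 and CCTTGTTTGG at -34 to -25 from the annotated start, each with 1 letter different from the full form. The Cnn2 promoter held 1 box in full form, CCTTATAAGG at -56 to -47. The box reads the same way on both strands. Of 32851 promoter windows of this length, 1.47% held a box in full form and 18.6% held one with at most 1 letter different. No such box was found in the windows of Vim, Mylk, Cnn1 or Oxtr, nor in those of the relatives Cnn3, Tagln2 and Myh9. The MCAT element (GGAATG or CATTCC), which TEAD factors bind, was found once each in Acta2 and Mylk and 2 times in Tagln2, against 12.6% of all windows. The E-box CAGGTG or CACCTG, which Snail factors such as Snai2 bind, was found once, in Oxtr, against 17.2% of all windows. These matches describe letters and not binding, and bases outside these windows, such as introns or other starts of the same gene, were not searched.

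The deposited values are on a log2 scale and had been brought to 1 common distribution, so every library had the same median of 8.10 and its depth is unknown. A gene was tested where its value was 3.32 or more (10 when not logged) in 3 or more libraries, which held for 16394 genes and for 8 of the 10 members. Markers of luminal cells were abundant: all 14 on the list were tested, with control levels from 9.82 to 14.57. The basal keratin genes were also high, at 14.91 ± 0.02 for Krt5 and 16.26 ± 0.08 for Krt14 in controls (log2, SD, n = 3). At the top of a common distribution a value follows the gene's rank, so these SDs may not give the spread of expression. In bulk RNA, the number of cells that express a gene and the RNA per cell cannot be told apart. Of the markers of other cell types, 10 of 12 fibroblast, 9 of 10 pericyte and vascular smooth muscle, 6 of 9 endothelial, 4 of 9 immune and 6 of 7 adipocyte genes matched a row. Control means were under the filter value of 3.32 for the vascular smooth muscle and pericyte genes Abcc9 and Kcnj8. The same held for the endothelial genes Cdh5, Kdr and Tek and the fibroblast genes Thy1 and Fap. It also held for the immune genes Lyz2 and Cd74 and the adipocyte genes Plin1 and Lep. Other genes of these lists were higher. The highest control means were 12.22 (pericyte and vascular smooth muscle, Notch3), 8.27 (endothelial, Pecam1) and 17.43 (fibroblast, Postn). They were 7.25 (Cd68) for the immune and 9.75 (Lpl) for the adipocyte list. With EFNA3, group means were higher for 8 and lower for 6 of the 14 luminal genes, higher for 1 and lower for 2 of the 3 tested endothelial and of the 3 tested immune genes, and higher for 1 and lower for 4 of the 5 tested adipocyte genes, none past the adjusted threshold by limma.

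The basal transcription factors were well above the median gene. Trp63, which encodes p63, stood at 11.82, 11.82 and 11.73 in control replicates 1, 2 and 3 and at 11.73, 11.76 and 11.72 in EFNA3 replicates 1, 2 and 3. The 6 values lay within a narrow band and the groups overlapped. The values are sums over the gene and do not separate the long and short amino-terminal forms of p63. Snai2, which encodes the basal repressor Slug, stood at 9.63, 9.89 and 9.70 in controls and at 9.99, 9.88 and 9.79 with EFNA3. EFNA3 replicate 1 was the highest library for Snai2, and EFNA3 replicates 2 and 3 lay between control replicates.

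The adhesion gene Cdh3, which encodes P-cadherin of basal cells, stood at 11.15, 11.14 and 11.08 in controls and at 10.98, 11.13 and 11.06 with EFNA3. The groups overlapped, with EFNA3 replicate 1 lowest. Vim, which encodes the intermediate filament protein vimentin of basal and mesenchymal cells, was the lowest basal member, at 8.01, 7.87 and 8.03 in controls and 8.47, 8.18 and 7.95 with EFNA3. EFNA3 replicates 1 and 2 lay above all controls for Vim and EFNA3 replicate 3 lay among them.

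Oxtr was the most abundant member in all 6 libraries, with 13.41, 13.47 and 13.43 in controls and 13.11, 13.43 and 13.39 with EFNA3. Its control mean exceeded those of 98.8% of genes in the table. EFNA3 replicate 1 lay below the other 5 libraries, which spanned less than 0.1 on the log2 scale.

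The contractile members covered a wide range of levels. Mylk, which encodes the myosin light chain kinase that starts smooth muscle contraction, stood at 9.42, 9.46 and 9.27 in controls and at 8.44, 9.21 and 9.14 with EFNA3. The groups did not overlap, and EFNA3 replicate 1 was far below the other libraries. As for Trp63, the Mylk values are sums over the gene and do not separate its long and short transcripts. Acta2, which encodes smooth muscle alpha-actin, stood at 7.77, 7.66 and 7.88 in controls and at 7.93, 7.71 and 7.88 with EFNA3, close to the median gene and with overlap between groups.

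Tagln, which encodes the actin-binding protein transgelin (SM22 alpha), stood at 5.15, 5.12 and 5.32 in controls and at 4.64, 5.20 and 4.17 with EFNA3. EFNA3 replicate 2 lay among the controls and the other two EFNA3 libraries below them. Cnn1, which encodes the actin-binding calponin of smooth muscle, stood at 2.95, 2.27 and 2.82 in controls and at 1.23, 0.24 and 2.74 with EFNA3. Myh11, the smooth muscle myosin heavy chain gene, stood at 2.99, 1.66 and 3.31 in controls and at 0.78, 1.65 and 1.22 with EFNA3. Both missed the filter, near the bottom of a table whose lowest value was -0.79. How the log2 values were made is not given, so these low values cannot be converted to reads.

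**Figure D1:**
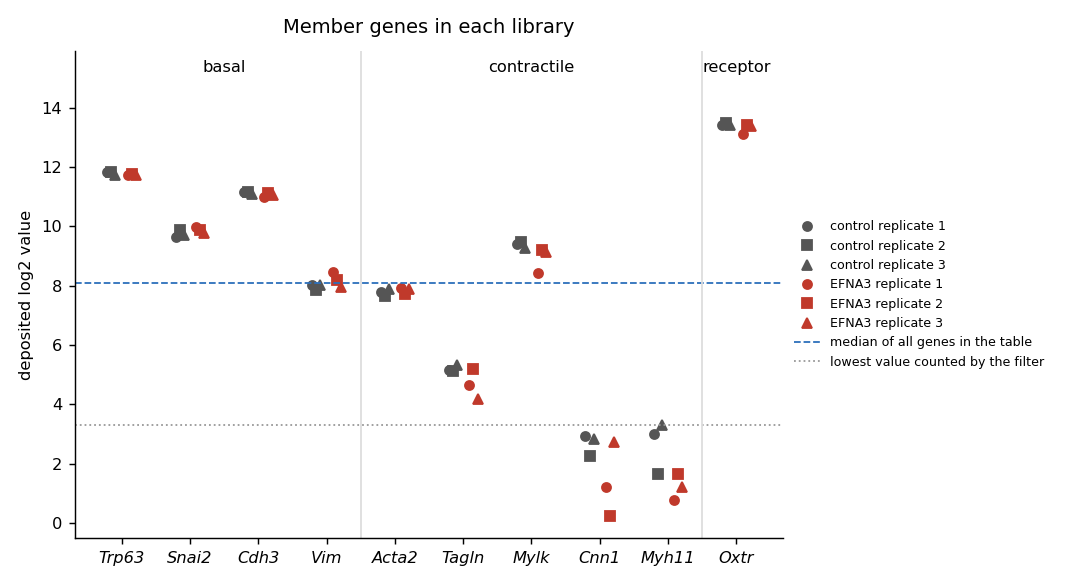
Deposited log2 value (vertical axis) of the 10 member genes in each of the 6 libraries; grey symbols are control and red symbols EFNA3 libraries, with circle, square and triangle for replicates 1, 2 and 3. Oxtr lies above 13, the basal transcription factors and Cdh3 between 9.63 and 11.82, and Cnn1 and Myh11 below 3.32, the dotted line of the filter, in every library.

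Levels of different genes were compared per kb of the longest annotated transcript, as the log2 value less the log2 of that length. The order in controls was Oxtr (11.20 ± 0.03), Trp63 (9.37 ± 0.05), Cdh3 (8.99 ± 0.04), Snai2 (8.72 ± 0.13), Acta2 (6.75 ± 0.11), Vim (6.42 ± 0.09), Mylk (6.41 ± 0.10), Tagln (4.52 ± 0.11), Cnn1 (1.43 ± 0.36) and Myh11 (-0.06 ± 0.87; log2 per kb, SD, n = 3). Of the 9 pairs of neighbours in this order, 8 had the same order in all 3 control libraries. The exception was Vim and Mylk, whose difference was 0.01 ± 0.17 and ran from -0.16 to 0.18. The place of Mylk depended on the length used: its longest transcript has 7824 nt and its median transcript 1210 nt. Per kb of the median transcript, a choice made after seeing the data, it stood at 9.11 ± 0.10, after Oxtr and Trp63 and before Cdh3 (8.99 ± 0.04), Snai2, Vim, Acta2, Tagln, Cnn1 and Myh11.

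Per kb, basal members were higher than contractile members on average. The mean over the 4 basal members was 8.38 ± 0.02 per kb in controls and the mean over the 5 contractile members 3.81 ± 0.26, a gap of 4.57 ± 0.29 (log2, SD, n = 3). The gap was 4.44, 4.89 and 4.36 in control replicates 1, 2 and 3. The members were chosen by name and not by level, but the 2 classes overlapped at Vim, Acta2 and Mylk. Acta2 lay above Vim in all 3 controls, and Mylk (6.49) lay above Vim (6.32) in control replicate 2. The size of the gap turned on Cnn1 and Myh11: over Acta2, Tagln and Mylk alone it was 2.48 ± 0.06. In EFNA3 libraries the gap was 5.63, 5.38 and 5.05 over all 5 contractile members, with a mean of 5.35 ± 0.29, and 2.85 ± 0.21 over those 3. No test was made of these summaries.

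The low contractile members belong to families whose broadly expressed relatives were abundant. In controls, the nonmuscle myosin heavy chain gene Myh9 stood at 11.35 ± 0.04 per kb, Myh14 at 9.36 ± 0.09 and Myh10 at 6.93 ± 0.11, against -0.06 ± 0.87 for Myh11 (log2, SD, n = 3). The calponin genes Cnn2 and Cnn3 stood at 9.64 ± 0.04 and 10.06 ± 0.03 per kb, against 1.43 ± 0.36 for Cnn1. Tagln2 stood at 11.72 ± 0.11 per kb, and its distance to Tagln was 7.16 to 7.24 in the 3 controls and 7.33 to 8.18 in the 3 EFNA3 libraries. The cytoplasmic actin genes Actb and Actg1 exceeded Acta2 by 7.18 ± 0.10 and 5.73 ± 0.10 per kb.

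Among muscle actins, Acta2 was higher than the skeletal gene Acta1, at 4.39 ± 0.71 per kb, and the enteric smooth muscle gene Actg2, at 0.72 ± 0.96 per kb (log2, SD, n = 3). In all 6 libraries each nonmuscle relative was above its contractile member. The actin genes are close in sequence, and how reads shared between them were counted is not given. The low values of Acta1 and Actg2 are therefore uncertain, as are the level of Acta2 and its distances to Actb and Actg1.

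**Figure D2:**
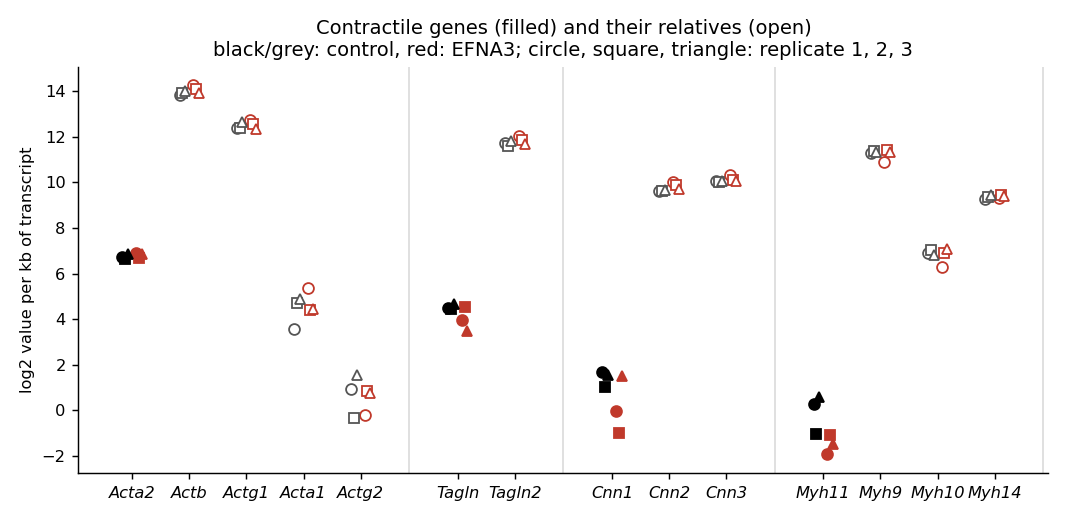
Log2 value per kb of transcript (vertical axis) for the contractile members (filled symbols) and their relatives (open symbols); black or grey is control, red is EFNA3, and circle, square and triangle are replicates 1, 2 and 3. In each family the nonmuscle genes (Actb, Actg1, Tagln2, Cnn2, Cnn3, Myh9, Myh10, Myh14) lie above the contractile member in all 6 libraries, while Acta1 and Actg2 lie below Acta2.

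The comparison of EFNA3 with control asks how ephrin-A3 protein affects gene expression in luminal cells. Of the 16394 tested genes, 0.00% passed limma at an adjusted p of 0.05, and the smallest adjusted p was 0.55; 1104 genes, or 6.73%, stood at an unadjusted p under 0.05. None of the 8 tested members passed after adjustment over all genes. The 1 tested member with an unadjusted p under 0.05 and with no overlap between groups was Mylk, where 16.0% of all tested genes had no overlap. The median difference over the 8 members was -0.06, against 0.004 over all tested genes, whose middle 50% ran from -0.14 to 0.14.

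Mylk differed by -0.45 (SE 0.19, 95% interval -0.87 to -0.03; limma unadjusted p = 0.038, adjusted p = 0.55). Its group mean went from 9.38 ± 0.10 to 8.93 ± 0.43 (log2, SD, n = 3). All 3 EFNA3 libraries were below all 3 controls, by 0.94 (replicate 1), 0.17 (replicate 2) and 0.25 (replicate 3) from the control mean, but an exact permutation test of 3 against 3 cannot go below 0.1. The difference was -0.21 without EFNA3 replicate 1, -0.28 when transcript length and GC share were corrected for, and -0.15 with both changes.

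Tagln differed by -0.53 (SE 0.30, 95% interval -1.20 to 0.15; limma unadjusted p = 0.11, adjusted p = 0.55), from 5.20 ± 0.11 to 4.67 ± 0.52 (log2, SD, n = 3). The value rested on EFNA3 replicate 3, at -1.03 from the control mean, and EFNA3 replicate 1, at -0.55; it was -0.27 with replicate 3 left out and -0.79 with replicate 2 left out. Acta2 differed by 0.07 (SE 0.12), with an interval of -0.20 to 0.34, which reached both sides of no difference. Leaving out control replicate 2 moved the Acta2 value to 0.01, leaving out EFNA3 replicate 1 to 0.02, and leaving out EFNA3 replicate 2 to 0.13. Cnn1 and Myh11 missed the filter and were not tested with it. Their group means went from 2.68 ± 0.36 to 1.40 ± 1.26 and from 2.65 ± 0.87 to 1.22 ± 0.43 (log2, SD, n = 3). The groups of Myh11 did not overlap, by a margin of its lowest control at 1.66 over its highest EFNA3 library at 1.65. With no filter on low values limma gave -1.28 (SE 0.69, unadjusted p = 0.093) for Cnn1 and -1.43 (SE 0.62, unadjusted p = 0.043) for Myh11, each with adjusted p = 0.58.

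The intervals of the basal members and Oxtr all reached both sides of no difference. Trp63 differed by -0.05 (SE 0.06), with an interval of -0.20 to 0.09, and by 0.05 after the correction for length and GC share. Cdh3 differed by -0.06 (SE 0.07), with an interval of -0.22 to 0.09; the value was -0.03 without EFNA3 replicate 1, -0.10 without EFNA3 replicate 2 and -0.0056 after the correction for length and GC share. Snai2 differed by 0.15 (SE 0.10), with an interval of -0.07 to 0.36, and by 0.10 without EFNA3 replicate 1. Vim differed by 0.23 (SE 0.14), with an interval of -0.10 to 0.55; the value was 0.09 with EFNA3 replicate 1 left out and 0.35 with replicate 3 left out. Oxtr differed by -0.13 (SE 0.09), with an interval of -0.33 to 0.08, and by -0.03 without EFNA3 replicate 1. By limma their adjusted p-values lay between 0.55 and 0.74.

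The mean difference was 0.065 over the 4 basal members, 0.0115 over the 3 other than Vim, and -0.303 over the 3 tested contractile members. Of the tested contractile members, 2 of 3 had lower group means with EFNA3, as did 2 of 4 basal members, against 49.2% of all tested genes. Whether the classes differed in their response was not tested.

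**Figure D3:**
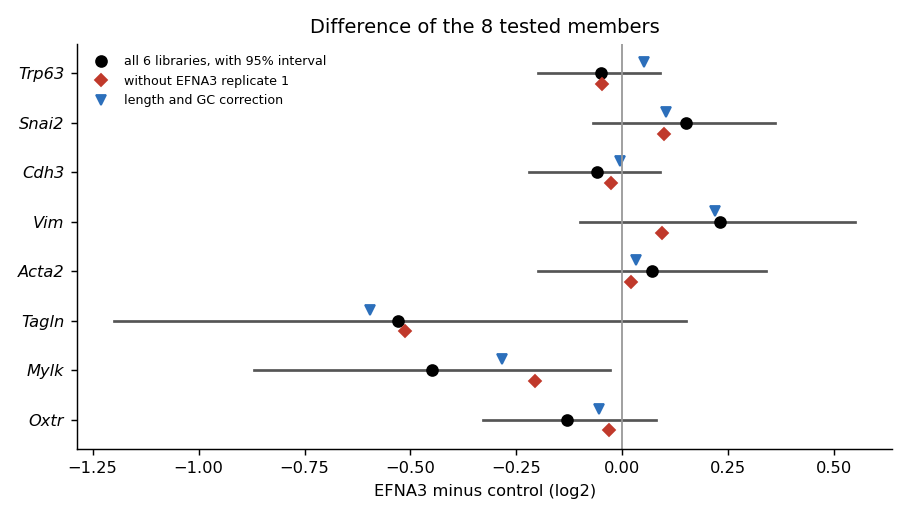
EFNA3 minus control difference (log2, horizontal axis) of the 8 tested members: black circles with bars give the value and 95% interval from limma with all 6 libraries, red diamonds the value without EFNA3 replicate 1, and blue triangles the value after correction for length and GC share of the transcript. The interval reaches both sides of 0 for every member but Mylk, whose value moves from -0.45 to -0.21 without EFNA3 replicate 1.

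EFNA3 replicate 1 departed from the controls by transcript length, and some members moved with it. In this library the median tested gene lay 0.40 above its control mean in the shortest eighth of transcripts (up to 1062 nt) and at -0.41 in the longest eighth (from 5951 nt). The same medians were 0.10 and -0.07 in EFNA3 replicate 2 and 0.06 and -0.04 in EFNA3 replicate 3. Mylk lies in the longest eighth, at -0.94 in EFNA3 replicate 1, past that median. Oxtr and Trp63 lie in the next eighth, whose median was -0.20 in that library; Oxtr stood at -0.32 and Trp63 at -0.06. Tagln, in the second shortest eighth with a median of 0.28, stood at -0.55 there, opposite in sign to genes of its length. Vim, in the eighth with a median of 0.10, stood at 0.49. Snai2 and Acta2, in the eighth with a median of 0.19, stood at 0.25 and 0.16, near that median. Cdh3, in the eighth with a median of -0.05, stood at -0.14. The part of length in these differences was not tested beyond the correction above. Over all tested genes, the median EFNA3 minus control difference ran from 0.17 in the shortest eighth to -0.18 in the longest. Differences of genes named from other lists below are given without the length correction.

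**Figure D4:**
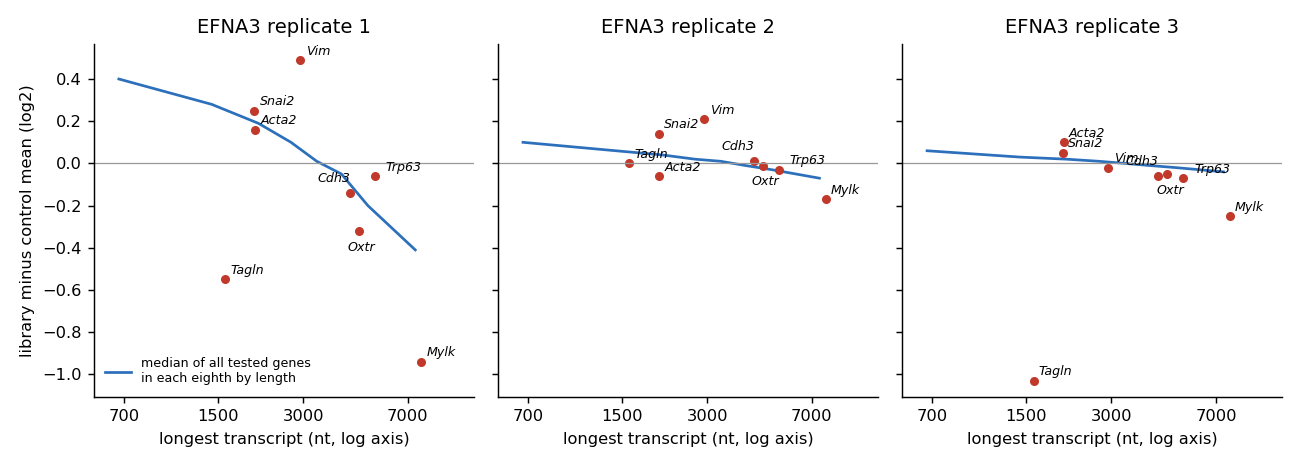
Deviation of each EFNA3 library from the control mean (log2, vertical axis) against the longest annotated transcript (nt, log axis), 1 panel per library; red points are the 8 tested members and the blue line joins the medians of all tested genes in each eighth by length. The line runs from 0.40 to -0.41 in EFNA3 replicate 1 and is nearly flat in the other two, while Mylk lies below the line in all 3 panels and Tagln stands at -0.55 and -1.03 in replicates 1 and 3.

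Other genes of the basal programme ranged in control level from 2.17 ± 0.95 for Igfbp2 to 16.26 ± 0.08 for Krt14 (log2, SD, n = 3). Of 22 listed, all matched a row with a median control level of 12.20, and 21 were tested. Procr, at 6.21 ± 0.09, and the growth factor gene Nrg1, at 6.37 ± 0.20, lay with Igfbp2 below the table's median of 8.10. The basement membrane adhesion genes Itga6, Itgb4 and Col17a1 stood at 14.21 ± 0.07, 13.32 ± 0.08 and 14.55 ± 0.08 in controls (log2, SD, n = 3); they were picked for their level. In the comparison 9 were higher and 12 lower with EFNA3, with a median of -0.02, and 0 passed limma after adjustment. The p63 target Perp, a desmosome gene, differed by 0.23 (SE 0.08). It was the 1 of 21 tested genes with an unadjusted limma p under 0.05, where 6.73% of all tested genes had one. Procr, a surface marker of mammary stem cells, differed by 0.35 (SE 0.17), the keratin gene Krt17 by 0.23 (SE 0.11) and the laminin gene Lama3 by -0.34 (SE 0.17). The longest transcripts of Perp, Procr and Krt17 have 1952, 1608 and 1551 nt, and that of Lama3 has 10548 nt. Lama3 stood at 11.36, 12.02 and 12.11 in EFNA3 replicates 1, 2 and 3, against a control mean of 12.17. The part of length in these 4 differences was not tested.

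Vim and Snai2 are also read as genes of epithelial-mesenchymal transition, and other genes of that list were split in level. Of 12 listed, 6 were tested; Zeb1, Zeb2, Twist1, Foxc2 and S100a4 had control means under 3.32 and Twist2 was not matched. Fibronectin, Fn1, stood at 12.32 ± 0.23 and N-cadherin, Cdh2, at 7.76 ± 0.16 in controls (log2, SD, n = 3). With EFNA3, 3 were higher and 3 lower, 0 passed after adjustment, and the named genes Mmp2, Itga5, Fn1 and Cdh2 differed by -0.31 (SE 0.12), -0.23 (SE 0.11), -0.24 (SE 0.23) and 0.10 (SE 0.12). Beside Vim, fibroblast collagen genes had higher means with EFNA3: Col1a1 differed by 0.29 (SE 0.16) and Col3a1 by 0.60 (SE 0.42), while Fbln1 differed by -0.31 (SE 0.10) and Pdgfra by -0.22 (SE 0.10). The summed level of the 10 fibroblast markers ran from 17.32 to 17.51 in controls and from 17.03 to 17.51 with EFNA3, nearly all of it Postn; without Postn it ran from 11.18 to 11.24 and from 11.04 to 11.20. The part of fibroblast RNA in the Vim values was not tested.

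P-cadherin shares its cytoplasmic partners with other cadherins. Of 7 cadherin and catenin genes, all tested, 4 were higher and 3 lower, and 0 passed after adjustment. E-cadherin, Cdh1, stood at 14.37 ± 0.03 in controls, above Cdh3 also per kb (12.23 ± 0.03 against 8.99 ± 0.04; log2, SD, n = 3). The catenin genes Ctnnd1 and Ctnnb1 differed by 0.11 (SE 0.09) and 0.09 (SE 0.08), the plakoglobin gene Jup by -0.09 (SE 0.11).

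Further smooth muscle and actin cytoskeleton genes were also spread widely in level. Of 24 listed, 22 matched a row and 21 were tested, with control means over the 22 from 1.13 for Actg2 to 14.56 for the alpha-actinin gene Actn4. The caldesmon gene Cald1 and the tropomyosin gene Tpm1, which are expressed in many cell types, stood at 13.94 ± 0.07 and 13.34 ± 0.05, and the smooth muscle genes Lmod1, Des and Synpo2 at 6.52 ± 0.23, 3.38 ± 0.83 and 4.18 ± 0.16 (log2, SD, n = 3). The smoothelin gene Smtn and Pdlim3 were higher, at 11.89 ± 0.03 and 12.49 ± 0.02. All 7 were picked for their level. In the comparison 12 were higher and 9 lower, with a median of 0.04, and 0 passed after adjustment. Cnn2 differed by 0.23 (SE 0.09), the myosin light chain gene Myl6 by 0.27 (SE 0.12), the tropomyosin gene Tpm2 by 0.24 (SE 0.13) and the filamin gene Flna by -0.26 (SE 0.15). Their longest transcripts have 2460, 3040, 2175 and 8456 nt in that order. Flna stood at 13.89, 14.47 and 14.47 in EFNA3 replicates 1, 2 and 3, against a control mean of 14.53.

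Markers of pericytes and vascular smooth muscle, the other cells that express Acta2, Tagln and Myh11, had summed levels of 12.81 to 12.90 in controls and 12.54 to 12.87 with EFNA3. Most of that sum came from Notch3 and Mcam, with control means of 12.22 and 11.24. The other genes of the list were far lower, with Rgs5 at 6.62, Pdgfrb at 4.61 and Cspg4 at 5.28 among them. Which cells gave the Notch3 and Mcam transcripts was not tested. Of 7 tested, 5 were higher and 2 lower. Rgs5 differed by 0.37 (SE 0.15), Notch3 by -0.25 (SE 0.15), Pdgfrb by 0.44 (SE 0.35) and Cspg4 by 0.16 (SE 0.28), and 0 passed after adjustment. The part of these cells in the contractile values was not tested.

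Of 7 myosin motor and light chain genes, 5 were higher and 2 lower, with 0 past the adjusted threshold. The regulatory light chain genes Myl12a and Myl12b differed by 0.35 (SE 0.11) and 0.30 (SE 0.19), and Myh10 by -0.18 (SE 0.18). Among factors and targets of the SRF pathway, Myocd was not matched, while Srf, Mrtfa and Mrtfb stood at 10.13 ± 0.13, 10.53 ± 0.05 and 11.68 ± 0.05 in controls (log2, SD, n = 3). Of 14 tested, 9 were higher and 5 lower, with a median of 0.04, and 0 passed after adjustment. Ccn2, a matricellular target of MRTF and YAP, differed by 0.27 (SE 0.10), Ccn1 by 0.22 (SE 0.10), Ankrd1 by 0.50 (SE 0.25) and Mrtfb by -0.33 (SE 0.15). Their longest transcripts have 2490, 2019, 2020 and 8295 nt in that order, and those of Myl12a, Myl12b and Myh10 have 1937, 2143 and 7791 nt.

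Oxtr signals through Gq proteins and phospholipase C to calcium release, and genes of each step were present. In controls the G protein genes Gnaq and Gna11 stood at 12.07 ± 0.07 and 11.27 ± 0.04, the phospholipase gene Plcb3 at 11.93 ± 0.06 and the calcium channel gene Itpr3 at 12.86 ± 0.05 (log2, SD, n = 3). Of 16 tested genes of this pathway, 5 were higher and 11 lower with EFNA3, with a median of -0.09, and 0 passed after adjustment. The named genes were Itpr1 at -0.34 (SE 0.13), Lnpep, which encodes the oxytocin-cleaving aminopeptidase, at -0.28 (SE 0.12), the protein kinase C gene Prkca at -0.35 (SE 0.17) and the calcium sensor gene Stim1 at -0.15 (SE 0.07). The median transcript of the list had 4888 nt, and the median tested gene of the eighth from 4520 to 5946 nt differed by -0.08. Itpr1, Lnpep and Prkca, with 9870, 12052 and 8409 nt, lie in the longest eighth, whose median tested gene differed by -0.18. Stim1, with 4362 nt, lies in an eighth with a median of -0.02.

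Across the 6 libraries, the genes whose values were most like the mean of the basal members were Gins4, Cyp4f16 and Dcn, with Pearson correlations of 0.992, 0.983 and 0.982. For the mean of Acta2, Tagln and Mylk they were Tecpr1, Det1 and Zer1, at 0.993, 0.990 and 0.989. With 6 libraries that share their normalization, 39 and 47 genes reached over 0.95, so these values only describe the order.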

How the data were processed

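Trim Galore, Subread, featureCounts and build mm39 are named, with no order or role, in the submitters' processing notes. The authors deposited 1 table of log2 values, whose base is inferred from their range (-0.79 to 18.1). The sources used here do not give versions, strand setting or the step from counts. The sorted columns differed by at most 0.00302, as after quantile normalization. Columns were matched to samples by the description labels. EFNA3 was compared with control by limma 3.58.1 in R 4.3.3 on these values as they stand, with a mean-variance trend, without a pseudocount or block, and Benjamini-Hochberg adjustment over 16394 genes, and the fit was tested on simulated data. Lengths and GC share came from the longest GENCODE M21 transcript (GRCm38), for 97.5% of tested genes; the correction took splines with 5 degrees of freedom out of each library. Without the authors' gene models, levels per kb are approximate. Members and lists were chosen with earlier results of these data known. All members were named and, from each of 14 other lists, up to 4 tested genes with the smallest unadjusted p (1 list is not reported here), plus relatives of contractile members and the 3 genes most like each class; genes named for their level were chosen after their values were seen. From the luminal, endothelial, immune and adipocyte lists only levels and counts are given. For libraries with the same replicate number in the titles, deviations from the group mean had correlations of -0.11, 0.03 and -0.32. With 3 libraries per group, these values cannot decide whether the libraries were paired. Alternatives covered pseudocount, filter, scaling, variance model, weights, blocks, length and each library left out.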

Additional observations from a re-analysis of the deposited data

How the results depend on the processing

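With no block, no setting made any of the 8 tested members or any other gene pass limma after adjustment. When the numbers in the titles served as a replicate block 0 genes passed; when those in the descriptions did, where only 2 pairs contribute, 71 genes passed, none of them a member, and the mean over contractile members was -0.437. Mylk stayed below 0 in 17 of 17 alternatives, from -0.59 to -0.15, with an unadjusted limma p under 0.05 in 13 of them. These alternatives refit the same 6 libraries and are not independent. The share of all tested genes under that p ran from 3.12% without control replicate 2 to 15.1% without EFNA3 replicate 3. Trp63 changed sign with the length and GC correction, to 0.0503; the cause was not tested beyond that correction. The mean over contractile members was -0.724 with no filter, which adds Cnn1 and Myh11, -0.192 with a stricter filter, which drops Tagln, and -0.196 with library weights, and ran from -0.418 to -0.233 when 1 library was left out; the basal mean ran from 0.0291 to 0.11. The level gap in controls of 4.57 was 4.18 with a pseudocount of 5, 3.89 per median transcript length, 5.22 without Vim and 2.48 without Cnn1 and Myh11 (an alternative chosen after seeing the data, as was the length correction without EFNA3 replicate 1), and ran from 4.40 to 4.67 when 1 control was left out. Depth is unknown, which limits genes with low values, Cnn1 and Myh11 among them.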

Other observations

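Postn, a secreted matrix gene placed on the fibroblast list, stood at 17.49, 17.49 and 17.30 in controls and 17.01, 17.49 and 17.49 with EFNA3 (log2), above Krt14, the most abundant gene of the basal list. Other genes of the fibroblast list were far lower in controls, with Col1a1 at 7.90 ± 0.32, Col1a2 at 5.03 ± 0.70 and Col3a1 at 4.27 ± 0.54 (log2, SD, n = 3). The source of the Postn transcripts was not tested.

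Markers of both mammary layers were abundant in the same libraries. The luminal progenitor genes Elf5 and Kit stood at 12.57 ± 0.02 and 12.25 ± 0.05 in controls beside Trp63 at 11.79 ± 0.05, Krt5 at 14.91 ± 0.02 and Oxtr at 13.44 ± 0.03 (log2, SD, n = 3). In bulk RNA these values do not show whether the same cells carried both.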
